A study of Mus musculus with 4 samples.

Results

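The clustered protocadherin genes were taken as the protein-coding RefSeq genes of mouse chromosome 18 whose symbols start with Pcdha, Pcdhb or Pcdhg. This gave 57 genes, 14 in Pcdha, 22 in Pcdhb and 21 in Pcdhg, among 17331 protein-coding genes of the autosomes and X that could be placed by their start. CTCF peaks were those of the deposited list with a summit between 36.85 and 38 Mb of chromosome 18 (mm10), 82 of 51871 peaks in all. The members were chosen by name and position, not by their peak values.

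The study profiled the zinc-finger protein CTCF by chromatin immunoprecipitation and sequencing (ChIP-seq) in testes of F1 mice bred from the strains B6 and CAST, and its title places the work in meiosis. The labels describe 2 immunoprecipitated samples and 2 input samples, all of frozen testis thawed in fixative, with no genotype other than the F1 cross, no treatment and no age given. The tissue was not sorted, so CTCF in germ cells and in somatic cells could not be told apart, and a peak list carries no expression by which the tissue could be checked against marker genes. Peaks were deposited as 1 merged list with no value per sample, so no spread between replicates, no test and no read depth stand behind the values below, and the B6 and CAST alleles are not separated.

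Clustered protocadherins are cell-surface adhesion proteins that give neurons individual identities. In Pcdha and Pcdhg, each variable exon has its own promoter and is spliced to constant exons at the far end of the cluster, whereas each Pcdhb gene is a single exon. CTCF bound at the promoters is known in neural cells to loop a chosen promoter to distant enhancers, one downstream of the Pcdha constant exons and a group beyond Pcdhg. Most alternate Pcdha exons are known to carry one CTCF site at the promoter and another within the exon. The C-type genes Pcdhac1, Pcdhac2, Pcdhgc3, Pcdhgc4 and Pcdhgc5 form a divergent subgroup, and several of these, with Pcdhb1, lack the promoter element shared by the others.

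In RefSeq coordinates, Pcdha ran from 36930285 to 37188897, Pcdhb from 37264998 to 37521419 and Pcdhg from 37661775 to 37841873. The upper ends of all Pcdha genes, and of all Pcdhg genes, nearly coincided, as the shared constant exons imply, so the lower coordinate of each member was taken as its start. For Pcdhb, which has no shared end, this rests on its known orientation, the same as that of the other clusters. Positions relative to a start are in bp, with a minus sign for upstream.

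CTCF summits marked nearly every variable exon in whole testis. A summit lay within 1 kb of the start of 53 of 57 members (93.0%), and each of the 53 had a summit of its own. The same rule, with starts placed by strand, was met by 34.2% of 17274 other protein-coding genes. No strand was available for chromosome 18, so its other genes are not among them. Genes of one array are neighbours and similar copies, not replicates, so the shares are given without a test. Whether reads could be placed uniquely among these copies was not tested. Of the 82 summits, 53 were at member starts, 10 were second summits farther inside a gene, and 19 lay elsewhere in the region.

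**Figure D1:**
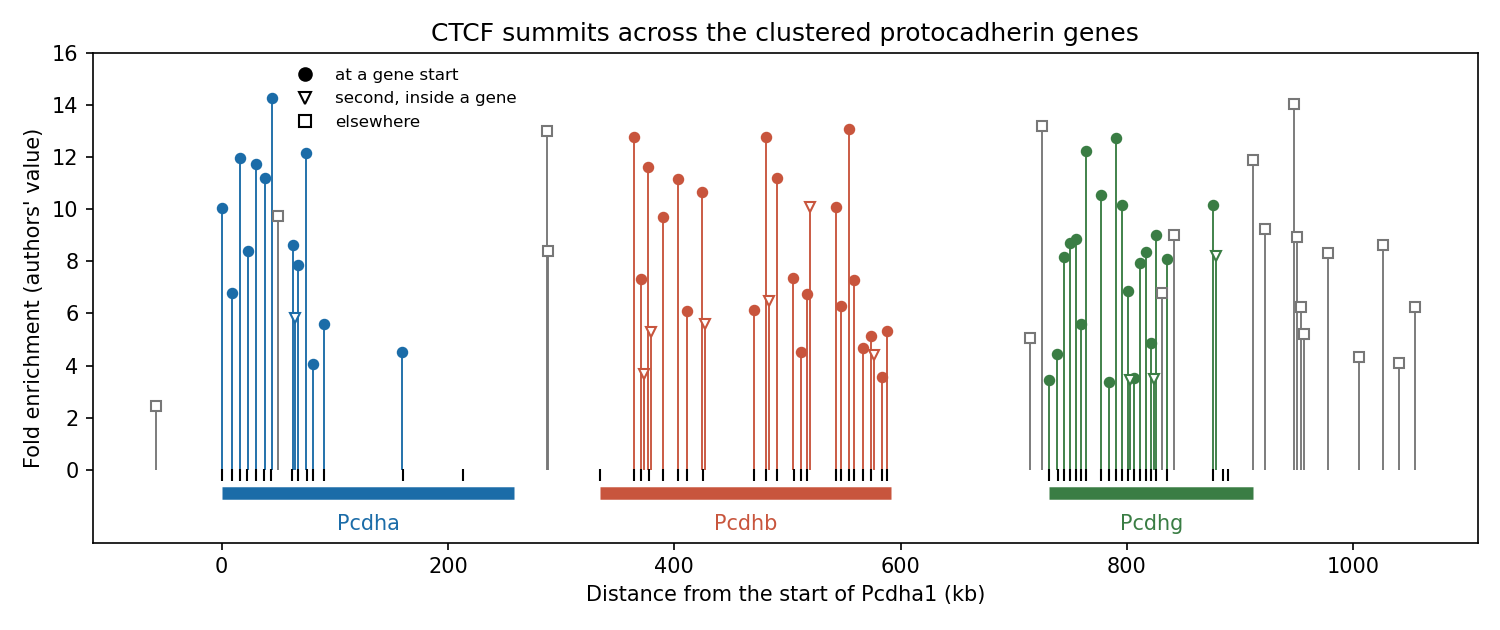
Fold enrichment of each of the 82 CTCF summits (vertical axis) against distance from the start of Pcdha1 in kb (horizontal axis). Filled circles are summits at gene starts, open triangles second summits, open squares the 19 summits elsewhere, black ticks the annotated starts and thick bars the clusters. The 3 arrays stand out as dense groups, and the ticks of Pcdhac2, Pcdhb1, Pcdhgc4 and Pcdhgc5 have no summit at them.

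The 4 members without a start summit lay at the edges of the arrays. Pcdhac2, the last Pcdha gene (start 37143678), had its nearest summit 53.7 kb away, at Pcdhac1. Pcdhb1, the first Pcdhb gene (start 37264998), had its nearest summit 29.8 kb away, at Pcdhb2. Pcdhgc4 and Pcdhgc5, the last Pcdhg genes (starts 37815079 and 37819546), had theirs 6.11 and 10.6 kb away, inside Pcdhgc3. No member had a start summit between 613 bp and 1 kb from its start, so the 1 kb limit fell in a gap of the values.

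The fold enrichment is the authors' ratio of signal at the summit to background, and the −log10 q is their measure of confidence in the peak. At member starts the median fold was 8.15, from 3.35 at Pcdhga7 to 14.3 at Pcdha7. At the start summits of other genes it was 5.27, and over all peaks 6.82. A fold above the all-peak median was reached by 34 of 53 start summits (64.2%), against 33.1% of the start summits of other genes. A fold of at least 9.28, the upper quartile of all peaks, was reached by 20 of the 53 (37.7%), against 14.2% for other genes.

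By cluster, the median fold at starts was 8.63 in Pcdha (n = 13 summits), 7.31 in Pcdhb (n = 21) and 8.15 in Pcdhg (n = 19). Their ranges overlapped almost fully, at 4.04 to 14.3, 3.57 to 13.1 and 3.35 to 12.7. Differences within each array were thus larger than those between the arrays' medians.

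**Figure D2:**
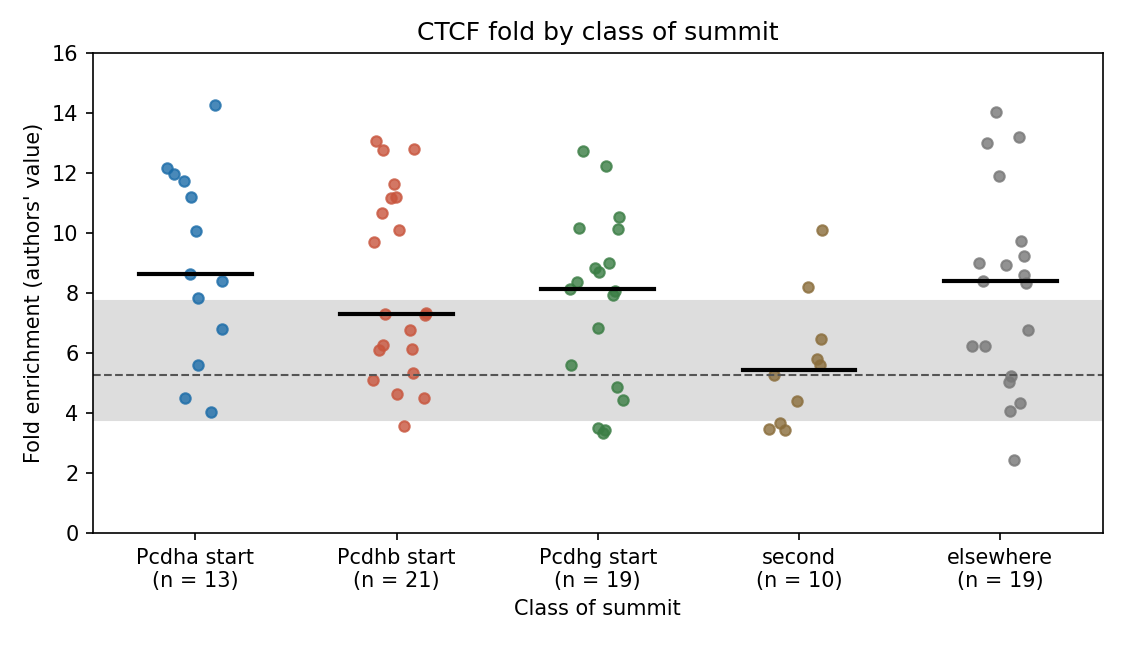
Fold enrichment (vertical axis) of each summit, by class (horizontal axis). Each point is 1 summit, each thick line the class median, and the dashed line and grey band give the median (5.27) and quartiles of start summits of other protein-coding genes. The medians of the 3 start classes and of summits elsewhere lie above the dashed line, and that of second summits, 5.44, lies close to it.

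Among the Pcdha genes, Pcdha7 had the highest fold, 14.3, followed by Pcdha10 with 12.2 and Pcdha3 with 11.98. The Pcdha7 value was above 96.3% of all peaks of the list. The lowest were Pcdha11 with 4.04, Pcdhac1 with 4.52 and Pcdha12 with 5.61, the 3 bound genes nearest to the constant exons. The other 7 Pcdha genes ranged between these groups, with Pcdha5 at 11.7, Pcdha6 at 11.2, Pcdha1 at 10.1, Pcdha8 at 8.63, Pcdha4 at 8.40, Pcdha9 at 7.85 and Pcdha2 at 6.80.

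Pcdha start peaks were wider, and their summits farther from the start, than those of the other arrays. At 8 Pcdha genes the summit lay downstream of the start, from 270 bp at Pcdha11 to 613 bp at Pcdha5, and at 5 it lay upstream, from −188 bp at Pcdha10 to −56 bp at Pcdha3. No Pcdha summit lay between −56 and 270 bp. The downstream summits, at Pcdha1, Pcdha4 to Pcdha8, Pcdha11 and Pcdha12, had a median fold of 9.34, and the upstream ones, at Pcdha2, Pcdha3, Pcdha9, Pcdha10 and Pcdhac1, had 7.85. Their ranges, 4.04 to 14.3 and 4.52 to 12.2, overlapped.

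Each peak interval carries 1 summit in the list, so a wide peak over several sites names only one of them. The start peaks of Pcdha had a median width of 1249 bp, against 842 bp in Pcdhb, 696 bp in Pcdhg and 546 bp at the starts of other genes. Over 1 kb wide were 10 of 13 in Pcdha, 4 of 21 in Pcdhb and 3 of 19 in Pcdhg, and 14.9% of the start peaks of other genes. The peaks of Pcdha1 to Pcdha12 ended 507 to 1285 bp past the start. A span from at least 100 bp upstream to at least 450 bp downstream, limits set after the positions were seen, was covered by 12 of 13 Pcdha peaks, 5 of 21 Pcdhb peaks and 6 of 19 Pcdhg peaks, and by 14.7% of the start peaks of other genes. Those 12, of Pcdha1 to Pcdha12, included the 4 whose summit was placed upstream of the start. Their ends differed, and the peak of Pcdha2, ending at 507 bp, stopped short of several downstream summit positions of its neighbours.

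Pcdhac1 was the Pcdha exception. Its peak began at −650 bp, had its summit at −177 bp and ended at 211 bp, so it did not reach the downstream position. It was also the narrowest start peak of the array, at 862 bp.

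**Figure D3:**
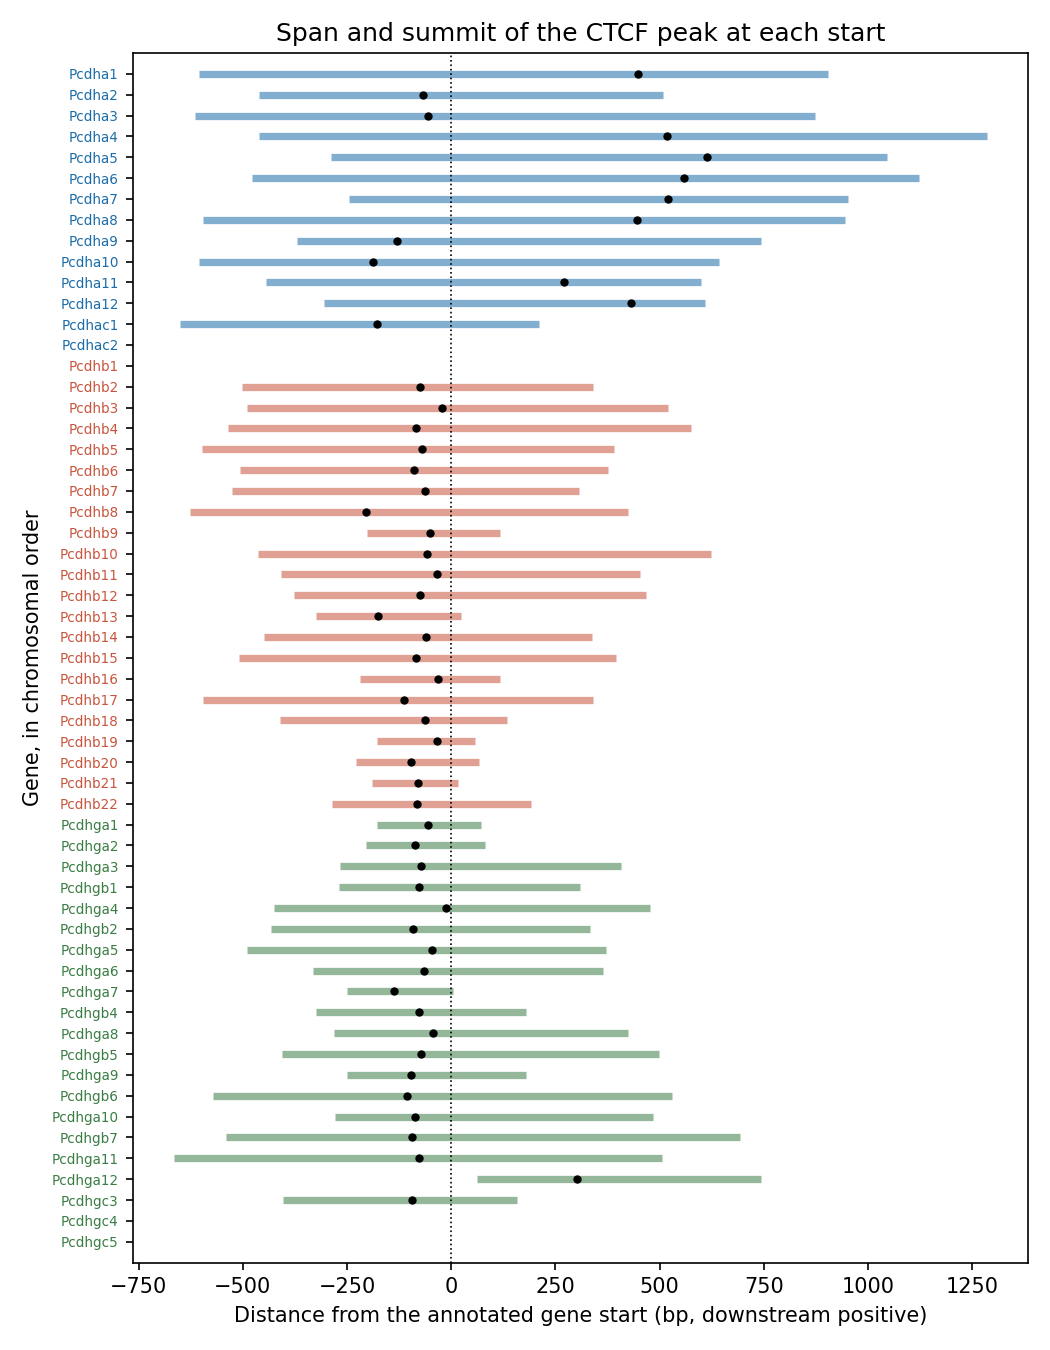
Span of the CTCF peak at each member start (bars) and its summit (dots), in bp from the annotated start with downstream positive, for the 57 genes in chromosomal order (blue Pcdha, red Pcdhb, green Pcdhg). The Pcdha bars reach far downstream with summits on either side of the start, all 21 Pcdhb summits lie upstream, and the rows of the 4 genes without a start summit are empty.

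In Pcdhb, all 21 start summits lay upstream, from −205 bp at Pcdhb8 to −23 bp at Pcdhb3, with a median of −74 bp. The quartiles of their positions were −85 and −57 bp. In Pcdhg, 18 of 19 were upstream, with a median of −78 bp. Over all members, 44 of 53 start summits (83.0%) were upstream of the start, against 50.9% for other genes.

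The highest folds in Pcdhb were 13.1 at Pcdhb17, 12.8 at Pcdhb2 and 12.8 at Pcdhb10, and the lowest were 3.57 at Pcdhb21, 4.52 at Pcdhb13 and 4.65 at Pcdhb19. The first 10 bound genes of the array, Pcdhb2 to Pcdhb11, had a median fold of 10.9 and ranged from 6.09 to 12.8. The next 11, Pcdhb12 to Pcdhb22, had a median of 6.27 and ranged from 3.57 to 13.1. Those in the first group exceeded the all-peak median in 8 of 10 cases and those in the second in 4 of 11. Over the 21 genes Spearman's rho of fold with order was −0.55, a description of neighbouring sites within 1 list. The division into these groups was made after the values were seen, and Pcdhb17 in the second group had a higher fold than every gene of the first.

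Peak width in Pcdhb followed fold, with Spearman's rho of 0.82 over the 21 sites. The same rho was 0.53 in Pcdha and 0.26 in Pcdhg. The narrowest was Pcdhb21 with 208 bp and the widest Pcdhb4 with 1112 bp. Pcdhb4 also had the highest −log10 q of any member, 79.4, at a fold of 11.6. Pcdhb9, the first gene after a stretch of 43.5 kb without summits, had a narrow peak of 322 bp and a fold of 6.14.

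In the Pcdhg array, B-type genes are interspersed among A-type genes, with runs of A-type genes such as Pcdhga5 to Pcdhga7. The 12 Pcdhga genes had a median fold of 8.26, from 3.35 to 12.2, and the 6 Pcdhgb genes 7.40, from 4.86 to 12.7, so the types overlapped over most of their range. The highest folds of the cluster were 12.7 at Pcdhgb4, 12.2 at Pcdhga5 and 10.5 at Pcdhga6, and the lowest were 3.35 at Pcdhga7, 3.44 at Pcdhga1 and 3.51 at Pcdhga9. High and low sites could be direct neighbours: Pcdhga7, above only 6.16% of all peaks by fold, lies between Pcdhga6 and Pcdhgb4. The other arrays had such neighbours too, as Pcdha10 (12.2) beside Pcdha11 (4.04) and Pcdhb16 (6.27) beside Pcdhb17 (13.1). Fold had a Spearman's rho of 0.17 with order in Pcdhg, and of −0.41 in Pcdha.

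Pcdhga12 stood apart in position. Its summit lay at 301 bp and its peak began 61 bp past the annotated start, so it was the only bound member whose start was not covered by its peak. Its fold was 8.08. The C-type gene Pcdhgc3 had a start summit at −93 bp with a fold of 10.2, within the positions of the A and B types, unlike its neighbours Pcdhgc4 and Pcdhgc5.

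Pcdhgb8 is annotated as a transcribed pseudogene and was not a member, yet a summit of fold 6.77 (37761669) lay 0.132 kb upstream of its start. Pseudogene Gm36858, between Pcdha7 and Pcdha8, held a summit at 36979852 with a fold of 9.75 in a peak of 1273 bp, a width close to those of the Pcdha start peaks. A further summit without a coding start, at 37772145 with a fold of 9.01, lay 6.57 kb past the start of Pcdhga12.

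Second summits were those over 300 bp and up to 3 kb downstream of a start that were not taken as a start summit. The 8 downstream start summits of Pcdha and that of Pcdhga12 were thus not counted. Second summits were found for 10 genes. They were Pcdha8, Pcdhb3, Pcdhb4, Pcdhb8, Pcdhb10, Pcdhb14, Pcdhb20, Pcdhgb5, Pcdhgb7 and Pcdhgc3. That was 18.9% of the bound members, against 12.4% of other genes with a start summit. Pooled over the clusters, their frequency was thus not far from the background. By cluster, 1 of 13 bound genes had one in Pcdha, 6 of 21 in Pcdhb and 3 of 19 in Pcdhg. The second summits lay from 1944 to 2992 bp past the start, and all 10 were inside the annotated gene. For Pcdha8, Pcdhgb5, Pcdhgb7 and Pcdhgc3 the 3 kb limit fixed this in advance, since these genes are 35464 to 195191 bp long. It does not place those summits in the variable exon. The one of Pcdhgb7, at 2992 bp, lay 1162 bp before the start of Pcdhga11. Of the 10, 9 lay from 1.9 to 2.6 kb past the start, a range set after the positions were seen, and 23.9% of 782 second summits of other genes did so.

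The second summits of the 6 Pcdhb genes lay from 2014 bp at Pcdhb8 to 2436 bp at Pcdhb3. They thus lay in the later part of a single-exon gene, from 59.5% of its length in Pcdhb4 to 86.1% in Pcdhb8. Their peaks were narrow, from 276 to 511 bp.

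Second summits were weaker than the start summit of the same gene in 9 of 10 cases, against 44.9% of second summits of other genes. The second summits themselves had a like fold, with a median of 5.44 in members and 5.39 in other genes. The medians at starts differed, at 8.15 and 5.27. At Pcdhb10 the fold was 6.47 against 12.8 at the start, at Pcdhb8 5.60 against 10.7, at Pcdhb4 5.27 against 11.6 and at Pcdhb3 3.67 against 7.31. The Pcdhb14 exon reversed this order, with a fold of 10.1 at 2311 bp and 6.76 at the start. Pcdhgc3 had the next highest second summit, with 8.21 against 10.2. The remaining pairs were 5.81 against 8.63 at Pcdha8, 4.41 against 5.11 at Pcdhb20, 3.44 against 6.85 at Pcdhgb5 and 3.47 against 4.86 at Pcdhgb7. The median ratio of second to start fold was 0.600.

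Fold and −log10 q ordered some sites differently. Pcdhac1 had a fold of only 4.52 with a −log10 q of 41.6, where the 3431 peaks within 0.25 of its fold had a median of 8.47. Its −log10 q was above 93.6% of theirs. Pcdhgb7, whose −log10 q was 41.4 at a fold of 4.86, was above 87.8% of peaks of like fold. Of the 53 start summits, 35 had a −log10 q above the median of peaks of like fold. The reverse was seen at members of all 3 clusters, 5 of which were above no more than 10% of peaks of like fold. About 10% of all peaks are so placed by construction, so 5 of 53 was near the background share. The lowest was Pcdhb11, whose −log10 q of 40.3 at a fold of 11.2 was above 4.01% of such peaks. The others were Pcdhb12 with 4.10%, Pcdha12 with 5.92%, Pcdha10 with 7.55% and Pcdhga6 with 8.66%.

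**Figure D4:**
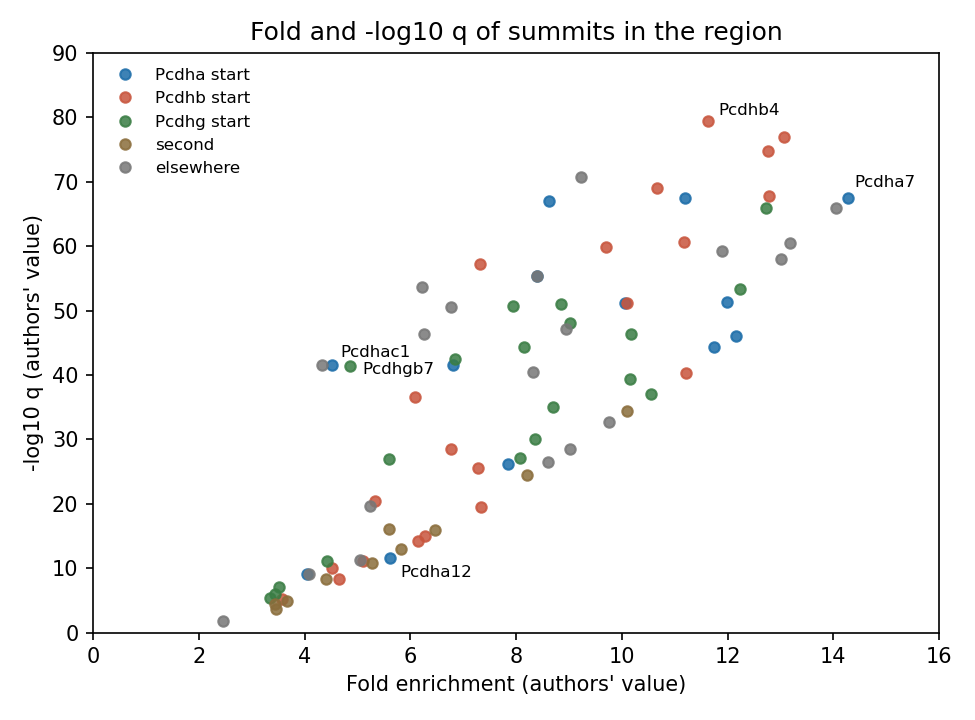
Fold enrichment (horizontal axis) against −log10 q (vertical axis) of the 82 summits, coloured by class. Each point is 1 summit. Most rise together, while Pcdhac1, Pcdhgb7 and a summit at the upper end of Diaph1 sit near a −log10 q of 41.5 at folds under 5, and second summits gather along the lower edge.

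The summits outside the genes lay in a few places. Upstream of Pcdha, the 80.3 kb from the region's edge to Pcdha1 held a single weak summit at 36872173, where the fold was 2.45 and the −log10 q 1.81, close to the list's threshold. Between Pcdha and Pcdhb lay a pair of strong summits. They stood 1026 bp apart, at 37217439 (fold 13.0, −log10 q 58.0) and 37218465 (fold 8.40, −log10 q 55.4), 28.5 and 29.6 kb past the Pcdha constant exons. This is the side on which the Pcdha enhancer lies. No enhancer coordinates were used here, so the pair was not matched to it.

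The pair was isolated on both sides. From the summit at Pcdhac1 to the pair there was no peak for 127 kb, a stretch that holds Pcdhac2 and the constant exons. From the pair to Pcdhb2 there was none for 76.3 kb, a stretch that holds Pcdhb1. Among all gaps between neighbouring summits of the autosomes and X, 8.05% and 14.98% were as long. The median gap was 18.1 kb genome-wide and 6.26 kb in this region.

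Between Pcdhb and Pcdhg, the 126 kb after the summit of Pcdhb22 had no peak. That stretch ends at Taf7, which encodes a subunit of the general transcription factor TFIID, where a summit of fold 5.04 (37644233) lay 29 bp from the gene's upper end. Slc25a2, a mitochondrial ornithine carrier gene beside it, had no summit within 1 kb of either end. A strong summit at 37655573, where the fold was 13.2 and the −log10 q 60.5, lay 6.20 kb before Pcdhga1 and 11.4 kb past Taf7. It was higher than every start summit of Pcdhg, where the neighbouring Pcdhga1 had 3.44.

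At the far end of Pcdhg, a summit at 37841464 with a fold of 11.9 lay 0.409 kb before the last annotated base of the cluster. Before it there was no summit for 32.5 kb, back to the second summit of Pcdhgc3, a stretch that holds the starts of Pcdhgc4 and Pcdhgc5. Beyond it lies Diaph1, a regulator of actin filaments, with 6 summits inside. The nearest was at 37852296, 10.4 kb past Pcdhg, and had a −log10 q of 70.7 at a fold of 9.24.

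Inside Diaph1, 4 summits stood within 9.65 kb of each other, from 35.7 to 45.3 kb past Pcdhg. Their folds fell in chromosomal order from 14.0 (37877547) through 8.94 (37880443) and 6.25 (37883675) to 5.23 (37887195). The first of these was the second strongest summit of the region by fold, after Pcdha7. A group of enhancers of Pcdhb and Pcdhg is known beyond Pcdhg, and these summits were likewise not matched to its coordinates. The last Diaph1 summit (37908252) had a fold of 8.33.

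Farther on, summits were nearer to other genes. One of fold 4.33 lay 52 bp from the upper end of Diaph1 (37935674) and 1.297 kb from Hdac3, the histone deacetylase gene. Its −log10 q of 41.5 was above 97.0% of peaks of like fold. Those beyond had folds of 8.61 inside Rell2, 4.08 between Fchsd1 and Arap3, and 6.23 inside Arap3.

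Across the whole region there were 71.3 peaks per Mb, 82 in 1.15 Mb. Of 2224 windows of that length tiled over the autosomes and X, with a median of 18 peaks, 1.62% held as many. Gene-rich windows came closer. Among the 72 windows with at least 40 protein-coding genes, a limit set after the counts were seen, the median was 64.5 peaks and 17 held as many as this region. Within the arrays, summits followed the genes at nearly their own spacing. The median gap between summits was 7.17 kb from Pcdha1 to Pcdha12, 6.92 kb from Pcdhb2 to Pcdhb22 and 5.09 kb from Pcdhga1 to Pcdhga12. The median spacing of starts there was 7.35, 7.69 and 5.33 kb. Most of these summits are the start summits counted above, so the closeness follows from that count and is not a separate result.

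Protocadherin genes outside the clusters were counted by the same rule. Of 11 non-clustered protocadherin genes, 8 could be placed by strand and 0 had a start summit (exact Clopper-Pearson 95% interval up to 36.9%, for counting error only). With 8 genes, no comparison with the share of other genes was made. Their nearest summits were 1.32 to 4.77 kb from the start, the closest at Pcdh18, Pcdh8 and Pcdh9. The 0 thus depends on the 1 kb limit. Those 3 genes and Pcdh7, Pcdh10 and Pcdh17 had a summit within 2.5 kb, while Pcdh19 and Pcdh20 did not. Within 2.5 kb, 42.5% of other genes had one.

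Genes that act on the clusters were counted the same way. Of 12 regulators, such as CTCF itself, cohesin subunits and the silencing factors Smchd1 and Setdb1, 9 could be placed and 7 had a start summit. Folds ran from 2.86 at Setdb1 to 9.95 at Smc3, with 8.52 at Ctcf and a median of 4.40. The Setdb1 peak had a −log10 q of only 2.70, where the lowest of all peaks was 1.31. Of 9 signalling partners of the protein tails, 5 could be placed and 2 had one, at Abi1 (6.79) and Wasf1 (4.70). The other placed partners, Cyfip2, Fyn and Prkca, had none. The share among all other protein-coding genes was 34.2%. With so few genes in each list, no further comparison was made.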

How the data were processed

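The submitters' processing notes list BWA 0.7.12, MACS2 2.2.7 and mm10 without saying what each did. The authors deposited 1 merged list of 51871 peaks for 2 CTCF immunoprecipitated and 2 input samples. Which of them entered it was not settled, since peak names also carry the word bio2. Each deposited peak has a fold enrichment, which is a ratio to background, a −log10 q, a summit, and a score that, like the deposited −log10 p, was left unused. All intervals were distinct, with 1 summit each. The authors' values served to describe and rank peaks of this list alone.

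Genes came from a RefSeq table of GRCm38.p6, with 1-based coordinates. Other genes were placed by the strand given in a RefSeq promoter table. Genes without one, among them the non-member genes of chromosome 18, or starting below 3 Mb, were left out. The start summit was the nearest within 1 kb. Named genes were all members without a start summit, the 3 highest and 3 lowest of each cluster, those with second summits, C-type genes, coding neighbours and the counted lists. Other members and pseudogenes were named after their values were seen. Members and lists were chosen with earlier results of these data known. The motif search was not run because promoter sequences of chromosome 18 were not used here. Summits were matched with Python 3.11.15 and pandas 2.3.3, and the matching was tested on simulated data. Alternatives were stricter peaks, other windows, interval overlap, the strongest summit and merged peaks.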

Additional observations from a re-analysis of the deposited data

How the results depend on the processing

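Of 38 alternatives of the 7 main values, 31 left the value within 1.5 times. The other 7 came from stricter peaks or a shorter reach, which remove peaks by construction. Only the median distance could change sign, and it did not. With only the peaks whose −log10 q reached the median, 34 members kept a start summit (12.8% of other genes), and the region held 41.7 peaks per Mb. At this setting 1 member kept a second summit (Pcdhb14, fold 10.1, whose start summit was itself removed). The share was 4.61% among other genes with a start summit. With a fold of at least 5, 43 members had a start summit (19.0% of other genes). A second summit was then found for 6 members, and for 7.20% of other genes with a start summit. With second summits counted only to 2 kb, 1 remained, with a fold of 3.44, against 8.64% of other genes with a start summit. A window of 500 bp left 49 members with a start summit, and overlap of the peak interval with the start gave 52. Placing other genes by their lower coordinate, an alternative added after the data were seen, lowered their share to 21.4%. No paired analysis was possible because no sample has values of its own in the list, and no replicate could be left out. With the depth unknown, weak sites below the authors' threshold cannot be counted.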
